A study of Drosophila melanogaster with 384 samples.

Results

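The 10 core genes of the Notch pathway were described here by the openness of the chromatin in and around them: Notch (N), Delta (Dl), Serrate (Ser), neuralized (neur), mastermind (mam), Suppressor of Hairless (Su(H)), Hairless (H), mind bomb 1 (mib1), fringe (fng) and kuzbanian (kuz). They were chosen by name for their place in the pathway, not by any measured value. Earlier results of these data were known when they were chosen. Every listed region that overlapped one of these genes, or lay within 5 kb upstream of one of its transcription start sites (TSS), was taken whole. This gave 0.377% of the 68775 regions in the count table, from 6 in mib1 and Su(H) to 67 in mam, and the genes were placed among the 13657 protein-coding genes with at least 1 listed region in a window made the same way.

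The cells were sens-GFP+ cells of eye-antennal discs, the larval epithelia that give rise to the eye, the antenna and the head capsule, dissected from wandering Drosophila melanogaster larvae in the third instar, raised at 25 °C. The strain, F2-B(sens)-GFP, has the genotype w;F2-B/CyO and drives GFP from an enhancer within an intron of the gene senseless (sens), one that the proneural factor Atonal (ato) targets, so the sort follows the activity of that enhancer and not the sens protein itself. A total of 200 discs were pooled and dissociated, GFP-positive and propidium iodide-negative cells were sorted, and single-cell ATAC-seq, in which Tn5 transposase cuts and tags accessible DNA, was run on the Fluidigm C1. The labels give 1 group, with no animal, batch or chip, and the table holds 72 of its cells, so there was no replicate of the sort and no comparison group, and nothing below was tested.

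Counts are the whole numbers deposited per region and cell, summed over the 72 cells and divided by the length of the regions to give counts per kb. Between 908 and 5892 counts (median 2694.5) were listed per cell. Intervals are exact 95% Poisson intervals for counts and 95% Wilson intervals for shares. Both describe counting error alone, because there was no replicate of the sort. Duplicates had been removed, but whether reads or fragments were counted is not given, so counts need not each stand for a separate molecule. Among the markers used to check the label, sens stood at percentile 97.03 of all genes (10.9 counts per kb) and the photoreceptor gene glass (gl) at 99.3 (15.6 counts per kb), whereas ato stood at percentile 39.4 and the R8 gene boss at 28.9. The other photoreceptor marker, elav, stood at 75.98. The sort was made on an enhancer of sens, so the value of sens is not an independent check of the label. The glial marker repo (26.96) and the myoblast marker twi (33.5) were low, and of the hemocyte markers eater was low (13.3) and Hml was not (77.97, with 21 counts). The part that cells of these other types played in the counts below was not tested.

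Notch is a receptor whose signal passes between touching cells. The ligands Delta and Serrate on one cell pull on the receptor of its neighbour, the receptor is then cut, and its intracellular part enters the nucleus, where it joins the DNA-binding protein Su(H) and the co-activator Mastermind to switch on targets such as the E(spl) genes. In the eye disc the pathway first helps to promote neural potential ahead of the furrow and then, by lateral inhibition, singles out the R8 cell from an Atonal-expressing group; the selected cell is the one that makes Senseless.

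All 10 genes lay above the median protein-coding gene of 2.81 counts per kb, with a median of 4.64. The intervals of H, mib1 and Su(H) held the value of the median gene, and those of the other 7 genes lay above it. The interval of kuz began nearest to it, at 3.15. The share of all protein-coding genes with an interval above the median gene was not computed. Counts of these 7 genes were spread over cells more widely than counting error gives, so intervals that allow for this would be wider. Pooled, their regions held 1381 counts over 250 kb, or 5.52 counts per kb (95% interval 5.24 to 5.82), against 2.49 over all listed regions. At least 1 count was found in 88.03% of them, with none in 31, close to the 81.6% of all listed regions. The genes ran from N at 7.86 counts per kb (6.87 to 8.96), through mam at 7.12, neur at 7.03, Dl at 5.88, fng at 4.66, Ser at 4.61, kuz at 3.61, H at 3.58 and mib1 at 3.44, to Su(H) at 3.29 (2.09 to 4.94). No 2 neighbours in this order could be told apart, since the interval of the ratio held 1 for all 9 neighbouring pairs. The order depends on the window: with the gene span only, Su(H) stood at 6.49 counts per kb, above Dl at 5.75.

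Some of these regions also belong to a neighbour: 61 of them, with 33.4% of the counts, lay in the window of another protein-coding gene as well. The values of H, mib1 and Su(H) rested on 19, 23 and 23 counts and on 8, 6 and 6 regions, of which 6, 1 and 6 were shared with another window. With only regions in no other window, H fell from 3.58 to 1.09 counts per kb (percentile 24.04 of all genes), mam from 7.12 to 4.81, kuz from 3.61 to 2.41, and Su(H) had no region left. With introns and 5 kb upstream only, H stood at 5.38. When only the gene and 1 kb upstream were used, mib1 stood at 7.11 and Su(H) at 5.78.

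**Figure D1:**
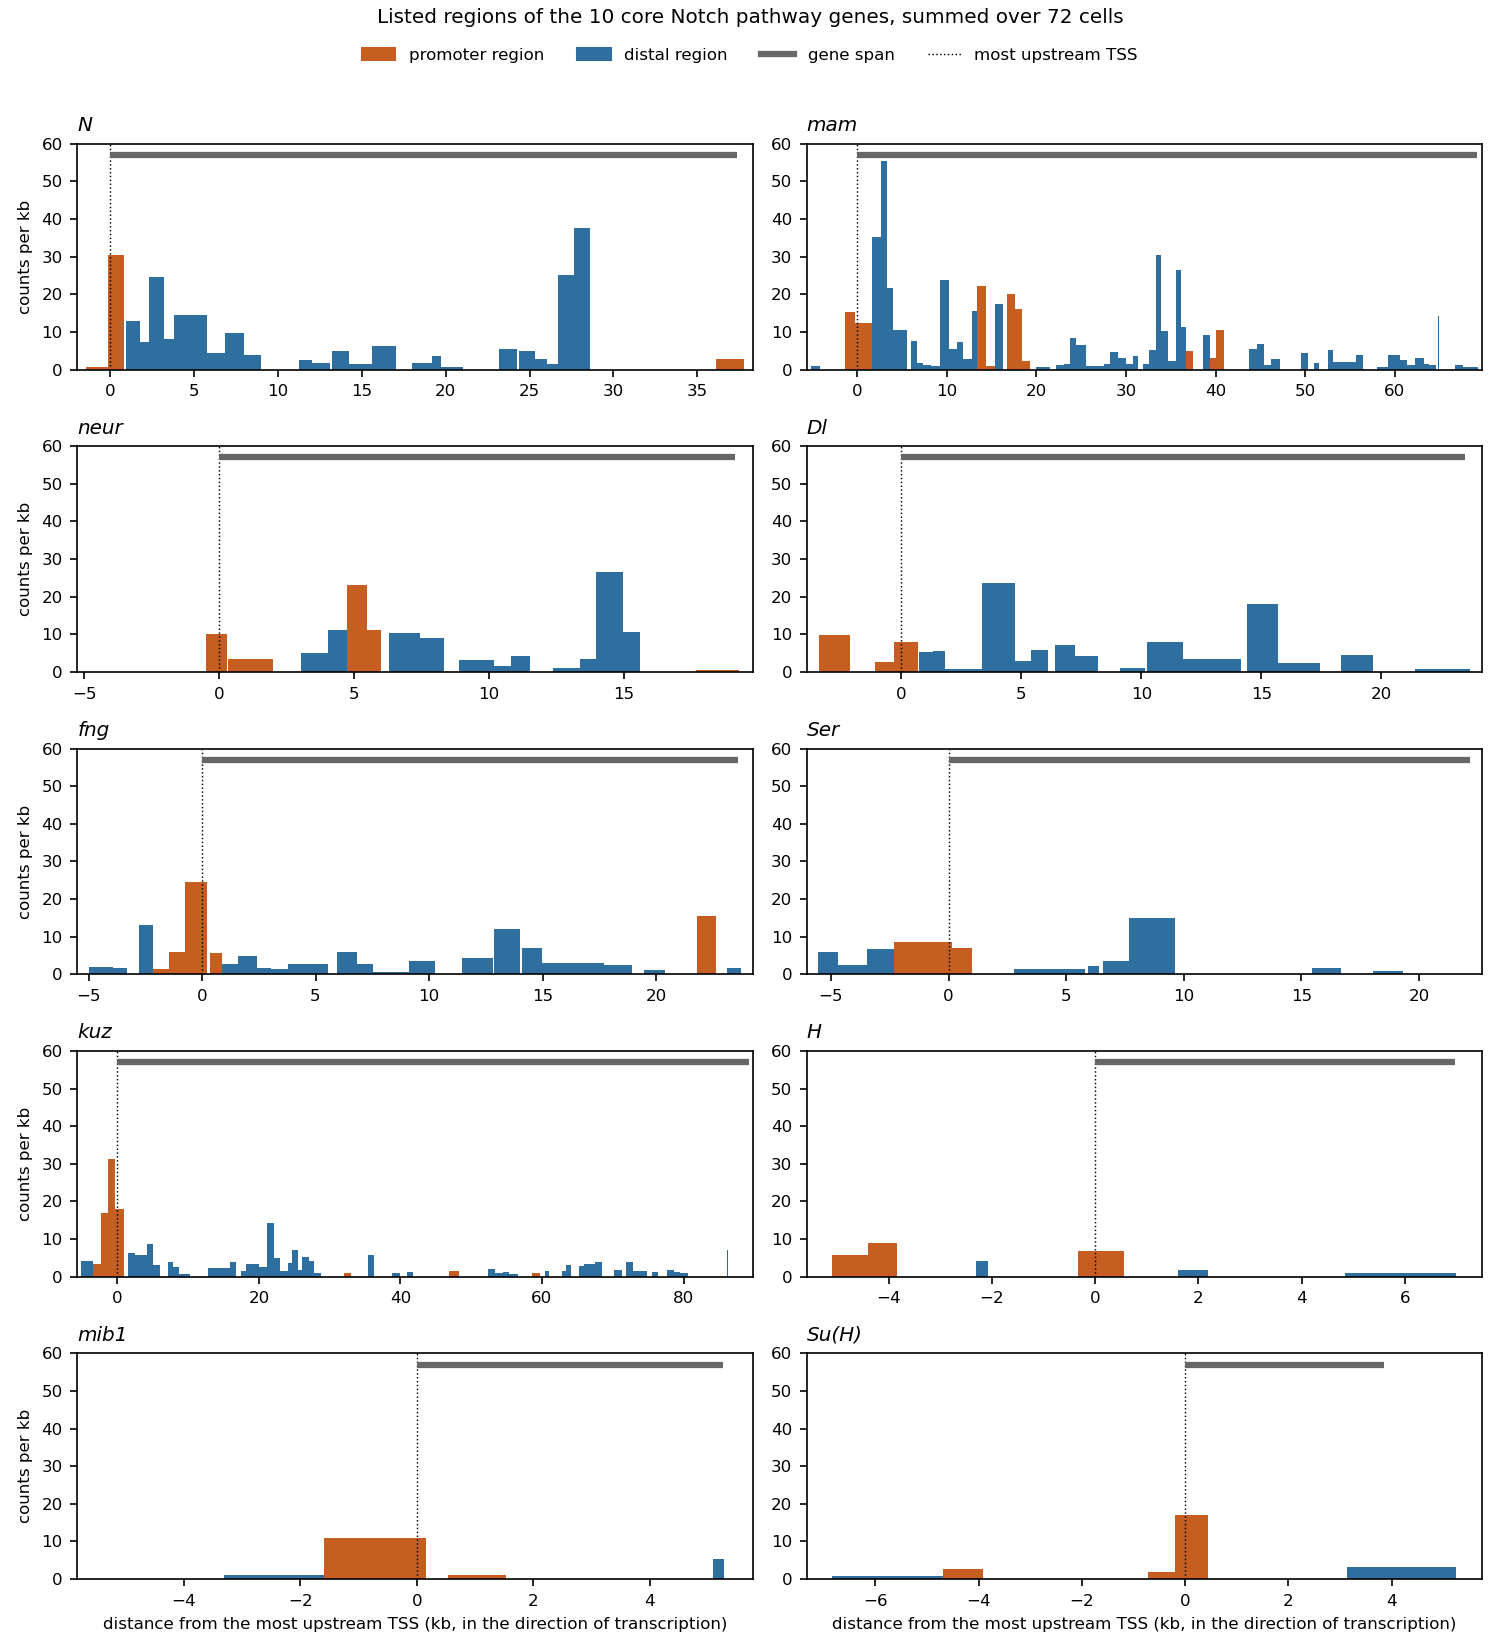
Counts per kb of every listed region of the 10 genes, plotted against the distance in kb from the most upstream TSS in the direction of transcription. Bars span each region, orange for promoter regions (within 500 bp of any annotated TSS) and blue for distal ones, the grey line is the gene, and gaps hold no listed region or no count; the tallest bar of N (37.6) lies 27.7 kb inside the gene, whereas that of kuz (31.2) lies just upstream.

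To show the DNA behind the largest values, stretches of 200 bases are printed from the most accessible region of the receptor N, the ligand Dl, the ligand ligase neur and the receptor protease kuz. In each region the stretch was the one with the most kinds, and then the most matches, of the following letters searched on both strands: GTGGGAA or GTGAGAA, the core bound by Su(H); CAGGTG and CAGCTG, E-boxes of the kind bound by proneural proteins; GAGAGAG, the repeat bound by GAGA factor; and AACCGGT or ACCGGTT, the Grainyhead core. Capitals mark matches, sequences run 5′ to 3′ on the strand of the gene, and coordinates are those of the Release 6 genome (dm6), from RefSeq. Labels such as intron, coding region or upstream describe the whole region from which a stretch was taken, not the stretch alone.
N, intron and coding region, chrX:3162833-3163032, plus strand: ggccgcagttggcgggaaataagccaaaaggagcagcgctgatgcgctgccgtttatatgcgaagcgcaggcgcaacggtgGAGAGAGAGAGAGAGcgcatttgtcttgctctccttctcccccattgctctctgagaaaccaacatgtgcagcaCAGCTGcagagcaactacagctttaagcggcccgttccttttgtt
Dl, intron, chr3R:19321912-19322111, minus strand: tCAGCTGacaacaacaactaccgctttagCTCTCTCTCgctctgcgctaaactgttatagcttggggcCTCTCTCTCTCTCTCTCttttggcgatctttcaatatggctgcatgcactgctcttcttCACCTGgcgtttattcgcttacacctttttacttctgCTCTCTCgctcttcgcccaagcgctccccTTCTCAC
neur, intron, chr3R:9025059-9025258, minus strand: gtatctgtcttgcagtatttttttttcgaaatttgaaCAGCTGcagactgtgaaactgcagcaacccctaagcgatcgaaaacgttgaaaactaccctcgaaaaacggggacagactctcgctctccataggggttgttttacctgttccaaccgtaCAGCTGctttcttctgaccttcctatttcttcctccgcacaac
kuz, upstream, chr2L:13548806-13549005, plus strand: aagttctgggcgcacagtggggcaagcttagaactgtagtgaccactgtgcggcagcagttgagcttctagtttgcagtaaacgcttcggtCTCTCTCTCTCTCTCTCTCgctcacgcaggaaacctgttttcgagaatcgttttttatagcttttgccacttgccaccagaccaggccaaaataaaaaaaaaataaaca
The N stretch holds 5 GAGA matches, which overlap in 1 run, and 1 CAGCTG. The Dl stretch holds every kind but Grainyhead, with its Su(H) core at the end. The neur stretch holds 2 of the 4 CAGCTG E-boxes of its region and no other match, and the kuz stretch holds only GAGA matches, 7 of them overlapping in 1 run.

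Delta, the main ligand of lateral inhibition, had a mean of 1.86 counts per cell over 19 regions, with a count in 51 of the 72 cells. Counts in a cell ran from 0 through a median of 1 to 9. The region with most counts per kb was an intronic one at chr3R:19321506-19322853, 3.36 kb into the gene, with 32 counts in 19 cells and 23.7 counts per kb (16.2 to 33.5), at percentile 99.43 of the 47846 distal regions of at least 200 bp. It carried 4 Su(H) cores, 3 CAGCTG, 1 CAGGTG and 13 GAGA matches, most of which overlap in runs. Cores of Su(H) occur in 27.5% of listed regions of like length (within 10%) and GAGA repeats in 17.3%. A match of letters says nothing of whether the protein was bound.

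Further into Dl, a region at chr3R:19310544-19311816 held 23 counts in 19 cells (18.1 counts per kb). Counted no more than once in a cell, it led the gene, at 14.9 per kb against 14.1 for the region above, so which of these regions is the strongest in Dl rests on repeated counts within cells. One at chr3R:19314476-19316006 held 12 (7.84). The region over the TSS held only 8 counts in 8 cells (8.02 counts per kb, 3.46 to 15.8). Most counts of Dl lay away from any TSS, and 17.2% of them in promoter regions (11.7 to 24.4). The largest promoter count, 13, lay 2128 bp upstream, at the TSS of the non-coding gene lncRNA:CR43258 and not at that of Dl.

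Serrate, the other ligand, acts in eye growth and, with Fringe, at the dorsal-ventral boundary. It had 84 counts over 15 regions in 40 cells, with 0, 1 and 7 as the lowest, median and highest count in a cell. A single intronic region, chr3R:27184650-27186579, held 29 of them in 17 cells, or 34.5% of the gene's counts, at 15.0 counts per kb (10.1 to 21.6), or 8.81 when counted no more than once in a cell. It has 1 Su(H) core, in letters that 35.5% of regions of like length also hold, and 1 CAGGTG. The regions at its TSS held 21 and 6 counts. None of its regions was shared with another window. Over all regions the ratio of Dl to Ser was 1.27 with an interval that held 1 (0.962 to 1.69). In distal regions it was 1.47 (1.06 to 2.06), and in promoter regions 0.911 (0.499 to 1.65). The 2 classes were not compared with each other by a test.

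Neuralized and Mind bomb 1 are E3 ubiquitin ligases that mark the ligands for endocytosis, without which Delta and Serrate do not signal. In neur, which is known to be switched on in selected neural precursors, a mean of 1.60 counts per cell was found, with a count in 46 cells (0, 1 and 10 as the lowest, median and highest in a cell). Its leading region was the intron at chr3R:9024500-9025482, 26 counts in 19 cells and 26.4 counts per kb (17.3 to 38.8), at percentile 99.59 of the distal regions. Its 4 CAGCTG E-boxes compare with at least 1 in 32.9% of regions of like length. An internal promoter region, chr3R:9033982-9034716, followed with 17 counts in 14 cells (23.1 counts per kb), while the region over the upstream TSS had 8. Of the 19 regions, 12, with 84 counts, were shared with another window, and without them neur stood at 4.93 counts per kb. The leading region, the internal promoter region and the region over the upstream TSS were all shared. The last of these is also at the TSS of hyx.

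By contrast mib1, which is broadly used, had 23 counts in 16 cells, of which 19 lay in the single region over its TSS, chr3L:16011648-16013405 (10.8 counts per kb, 6.51 to 16.9). The highest count in a cell was 5, and 56 cells had none. The promoter regions of both ligases did not differ beyond counting error, with a ratio of neur to mib1 of 1.37 (0.777 to 2.48). In distal regions the ratio was 6.59 (2.17 to 32.6), from 77 counts over 14 regions of neur and 3 counts over 3 regions of mib1. Over the whole genes the ratio was 2.04 (1.30 to 3.35), but it was 1.08 with the gene span plus 1 kb upstream (7.67 and 7.11 counts per kb), so the difference between whole genes rests on the 5 kb window. The distal value of mib1 rests on that window too. Its distal regions with 2 and 0 counts begin 1.59 and 3.31 kb upstream, outside the gene span plus 1 kb. The remaining one, with 1 count, is 190 bases long.

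N, the receptor, had a mean of 3.11 counts per cell over 30 regions and a count in 61 of 72 cells (84.7%, 74.7 to 91.2), with 0, 2 and 12 as the lowest, median and highest count in a cell. Its leading region, chrX:3162548-3163479, overlaps intron and coding sequence 27.7 kb from the TSS. It held 35 counts in 29 cells, at 37.6 counts per kb (26.2 to 52.2), in place 49 of 47846 distal regions. The adjoining region, chrX:3161555-3162547, held 25 counts in 20 cells (25.2 counts per kb). The region over the TSS, chrX:3134720-3135668, was about as accessible, with 29 counts in 20 cells (30.6 counts per kb, 20.5 to 43.9).

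Another group of N regions lay in the introns behind the TSS. The regions beginning 0.957, 2.28, 3.82 and 6.85 kb from it held 10, 23, 28 and 11 counts. With both regions near 27 kb, N thus had 6 distal regions of at least 10 counts, which together held 69.8% of its distal counts. Between these groups stretched introns with few counts, as the maps of the regions show. A Su(H) core was found in 4 of the 6, each with 1 match, and GAGA repeats in 5, where the shares of regions of like length would give 1.37 and 0.933. Those shares cover regions of either class and any count, whereas the 6 were picked for their counts. Only 6 counts of N (2.68%) lay in a region shared with another window.

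Fringe, a glycosyltransferase that adds sugars to Notch and so shifts its response from Serrate to Delta, had the highest value of the 10 genes in promoter regions, 12.01 counts per kb (8.76 to 16.1). The region over its TSS, chr3L:20949301-20950275, was its strongest, with 24 counts in 17 cells (24.6 counts per kb). It carried both E-boxes, 1 CAGCTG and 1 CAGGTG, and 7 GAGA matches. A promoter region inside fng with 13 counts lies at the TSS of another gene, CG10589. Over the whole window fng had 120 counts in 43 cells (0, 1 and 10 as the lowest, median and highest in a cell).

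Kuzbanian is the ADAM metalloprotease that makes the first ligand-dependent cut in Notch. A mean of 3.01 counts per cell was spread over 62 regions, with a count in 60 cells (0, 2 and 16 as the lowest, median and highest in a cell). Of these counts, 31 lay in the region at chr2L:13548771-13549762, upstream of kuz and overlapping the neighbouring gene B4 (26 cells, 31.2 counts per kb, 21.2 to 44.4). This is the region with the 7 GAGA matches, a repeat that 13.6% of regions of like length hold. The regions on either side of it held 23 and 15 counts, and all 3 also lie at a TSS of B4, so that the part of kuz and of B4 in these counts cannot be told apart. Within the long introns of kuz, counts were thin: distal regions stood at 2.71 counts per kb (2.28 to 3.20), with 15 counts in the largest, 21.1 kb from the TSS.

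Of the nuclear factors, mam had the most counts of the 10 genes, 422 over 67 regions in 64 cells, with 0, 4.5 and 24 as the lowest, median and highest count in a cell. One of its introns holds the distal region of at least 200 bp with the most counts per kb in the whole table, chr2R:13993835-13994593 (42 counts in 29 cells, 55.3 counts per kb, 39.9 to 74.8). The region just before it held 33 counts (35.1 counts per kb), and those after it 14 and 16. All 4 also lay in the window of another gene. Other peaks of mam lay farther in, at 9.28, 33.4 and 35.6 kb from the first TSS, with 23, 17 and 16 counts, and beside a TSS farther in with 18 (20.02 counts per kb). No Su(H) core was found in the strongest region, and 2 of the 8 distal regions of mam with at least 10 counts held one, near the 1.48 that the shares of regions of like length would give.

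Su(H), the DNA-binding factor of the pathway, had 23 counts in 18 cells, and 54 cells had none. The region over its TSS, chr2L:15039291-15039937, held 11 of them in 10 cells (17.0015 counts per kb, 8.49 to 30.4), and this region is also at the TSS of CIAPIN1. H, the adaptor that brings the co-repressors Groucho and CtBP to Su(H), had 19 counts in 16 cells. The region over its own TSS, chr3R:20621604-20622496, held 6 counts in 6 cells (6.72 counts per kb), and the region with most counts per kb, with 5 counts (8.98, 2.91 to 20.9), lay 3847 bp upstream at the TSS of CG5466. Su(H) and H could not be told apart (ratio 0.920, 0.479 to 1.79). The co-activator mam exceeded Su(H) 2.16-fold (1.42 to 3.45), in promoter regions 2.04-fold (1.17 to 3.85) and in distal regions 3.02-fold (1.57 to 6.66). The whole-gene excess was 1.25-fold with the gene span plus 1 kb upstream and 1.09-fold with the gene span only, so it too rests on the 5 kb window.

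The genes differed more in their distal than in their promoter regions. A promoter region here overlaps 500 bp on either side of any annotated TSS, including those of other genes, and any other region is distal. Promoter regions ran from 5.13 counts per kb in Su(H) to 12.01 in fng, a range of 2.34-fold, whereas distal regions ran from 1.06 in mib1 to 7.71 in N, a range of 7.26-fold. The low distal values of mib1, H and Su(H) come from 3, 4 and 9 counts. Promoter regions exceeded the 4.38 of all promoter regions in 10 of 10 genes, with the interval above it in 7. The promoter intervals of H, mib1 and Su(H) held 4.38, from 15, 20 and 14 counts. Distal regions exceeded the 1.88 of all distal regions in 8 genes, with the interval above it in 7, and H (1.31) and mib1 (1.06) lay below. The shares of all protein-coding genes that pass these cuts were not computed.

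**Figure D2:**
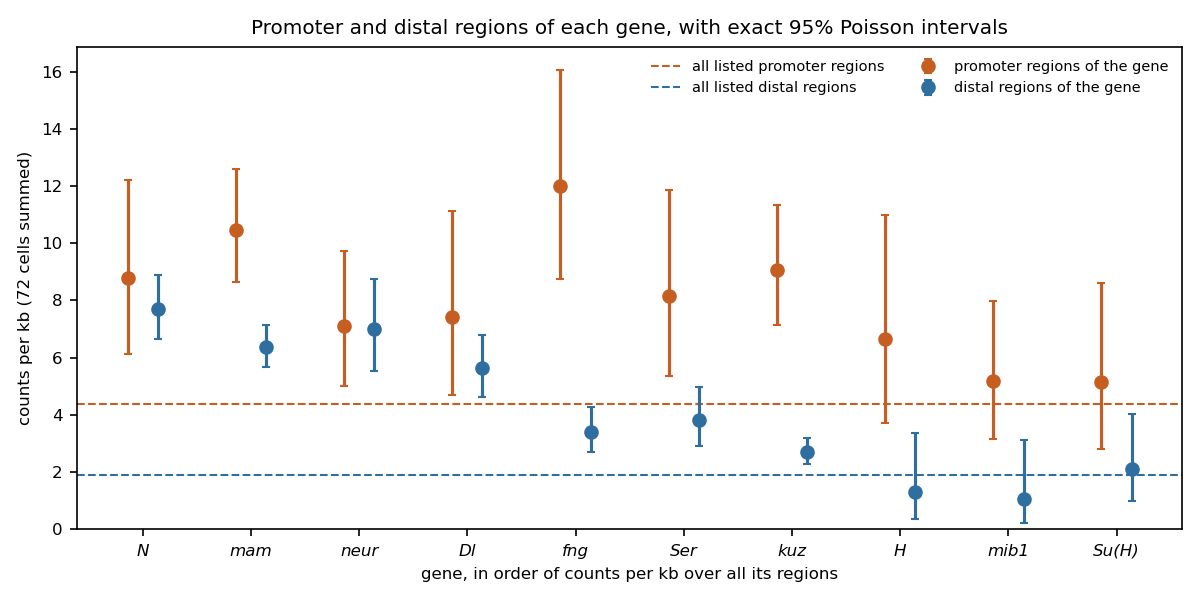
Counts per kb of the promoter (orange) and distal (blue) regions of each gene, summed over 72 cells, with exact 95% Poisson intervals as bars and the values of all listed promoter and distal regions as dashed lines. In N and neur both classes stand close together (8.79 and 7.71, 7.09 and 6.998), whereas in fng and kuz the promoter regions stand far above the distal ones (12.01 and 3.41, 9.06 and 2.71).

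Pooled over the 10 genes, 29.5% of the counts (27.1 to 31.9) lay in promoter regions, which make up 19.1% of the bases, compared with 42.5% on 24.1% of the bases over the whole table. The share ran from 15.6% in N and 17.2% in Dl, through 26.8% in mam, 32.1% in Ser, 33.04% in neur, 35.5% in kuz and 37.5% in fng, to 60.9% in Su(H), 78.9% in H and 86.96% in mib1. The 3 genes with the highest shares also had the largest share of promoter bases (39.03% to 57.8%), against 13.6% to 32.8% in the others. With the promoters of the 10 genes alone counted, the pooled share was 22.2%.

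At least 10 counts were held by 23 of their distal regions (10.9%), against 3.67% of all distal regions, and by 17 of their 48 promoter regions (35.4%), against 12.9%. The distal ones belonged to mam (8), N (6), Dl (3), neur (2), kuz (2), Ser (1) and fng (1), with none in Su(H), H and mib1, which have 2, 4 and 3 distal regions. For 5 genes (N, mam, neur, Dl and Ser) the strongest region was distal, and for fng, kuz, H, mib1 and Su(H) it was a promoter region. How often the strongest region is distal over all genes was not computed. In the 23 distal regions the Su(H) core was found in 11, where the share of regions of like length would give 5.28, and GAGA repeats in 10 (3.54). CAGCTG was found in 11 (8.19), CAGGTG in 5 (6.42) and the Grainyhead core in 1 (0.913). These counts are descriptions of the letters of a small set of regions. The 23 were picked for their counts, whereas regions of like length are of either class and any count. Whether other distal regions with at least 10 counts hold as many matches was not tested.

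In single cells the 10 genes were sparsely covered. A cell held between 2 and 39 counts in their regions (median 19.5), or 0.201% to 1.53% of its total, and between 2 and 9 of the genes had a count (median 6); no cell had a count in every gene. The number of genes with a count followed the total of the cell (Spearman's rho 0.46 over 72 cells of 1 sort, which share depth and library preparation). Cells with a count were more numerous among the 36 deeper cells than among the 36 shallower ones for Ser (25 and 15), neur (26 and 20) and Su(H) (12 and 6), whereas N (31 and 30) and kuz (30 and 30) were found about as often in both. A cell without a count is therefore not a cell with a closed gene.

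**Figure D3:**
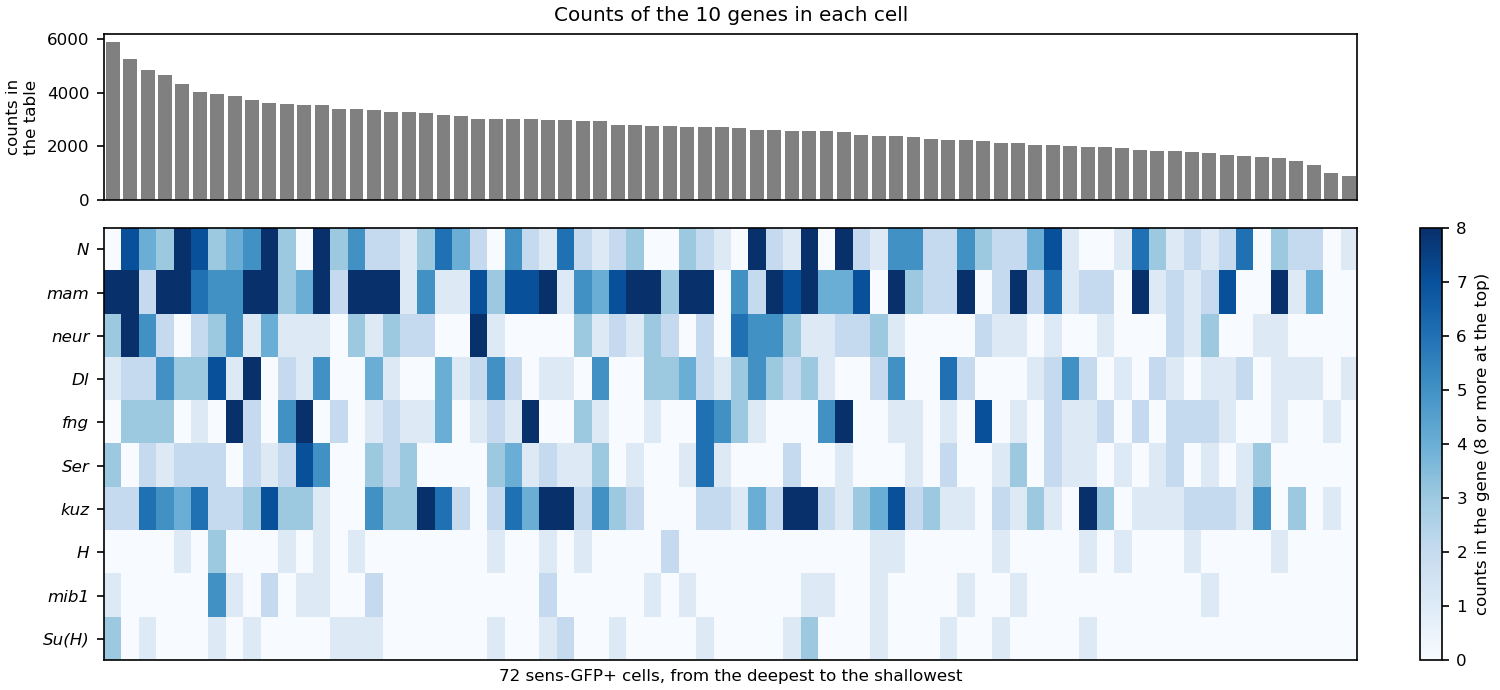
Counts of each gene in each of the 72 cells (colour, 8 or more at the darkest), with cells ordered by their total counts in the table (grey bars). Rows of mam, N and kuz are filled across most cells (64, 61 and 60), and those of H, mib1 and Su(H) in few (16, 16 and 18).

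The spread over cells was set against that expected from the totals of the cells, where counting error alone gives a dispersion near 1. It ran from 1.08 in Su(H) and 1.10 in H to 2.97 in fng and kuz and 4.69 in mam, and larger counts go with larger dispersion. Among genes of like count, fng stood at percentile 89.1, mam at 69.4, mib1 at 60.996 and kuz at 59.9, whereas Su(H) (18.5), N (22), Dl (23.9), H (24.5), neur (27.6) and Ser (31.9) were below the median. Counts were more uneven across cells for fng than for most genes of its size, and more even for N and both ligands. The receptor and Delta had counts together in 43 cells, N alone in 18, Delta alone in 8 and neither in 3; the product of the shares of cells with a count in each gene is 43.2 cells. Delta and neur had counts together in 31 cells, Delta alone in 20, neur alone in 15 and neither in 6, against a product of 32.6. Both counts lay close to these products. N had a count in 84.7% of the cells and Delta in 70.8%, so the number of cells with both could vary only in a narrow range. The products also leave out the depth of the cells, which the number of genes with a count followed. Whether the genes of either pair go together in single cells was not tested.

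Other genes of the pathway, in a list of 33, were placed in the same way, and 31 of 33 lay above the median gene, with a median of 7.42 counts per kb. The bHLH repressors of the E(spl) complex, the classical targets of Su(H) and Notch, had the highest median of the groups in the list, 15.1 counts per kb. The highest of them was E(spl)mbeta-HLH (a mean of 2.21 counts per cell, with a count in 53 cells). All 7 were above the median gene, from 11.1 to 24.2 counts per kb. Of the Bearded family, small proteins that inhibit Neuralized, 7 of 8 were above it. E(spl)malpha-BFM reached 25.8 counts per kb (21.8 to 30.4) and Brd 22.2 (18.7 to 26.2), and BobA was at 2.19 with 8 counts. These genes sit side by side in complexes and share windows, so they are not separate measurements. The E(spl) bHLH genes have 29 distinct regions with 486 counts (16.3 counts per kb) and the Bearded family 29 regions with 528 (14.5). Some of the regions are common to both. Promoter regions make up 64.5% and 57.1% of their bases, against 19.1% in the 10 core genes. The part of this in their values was not tested.

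The co-repressors and nuclear partners gro, CtBP and Bx42 ran from 7.14 to 9.84 counts per kb, each above H and Su(H). Among genes for processing of ligand and receptor (gamma-secretase subunits, proteases, O-fucosyl and O-glucosyl transferases), 7 of 8 were above the median gene, from 4.34 in aph-1 to 9.62 in O-fut1, which rested on 5 counts. The gamma-secretase subunit pen-2 was the lowest of the list at 1.48 counts per kb (0.679 to 2.82, 9 counts). All 7 trafficking and sorting genes were above the median gene, from 3.27 in spdo to 7.42 in Su(dx). Of these, spdo acts with numb in sensory lineages. The intervals of spdo (1.87 to 5.32), lgd (1.77 to 6.80) and Nedd4 (2.71 to 4.72) held the value of the median gene, as did those of aph-1 (1.99 to 8.24) and pen-2. No gene of the list was without counts.

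**Figure D4:**
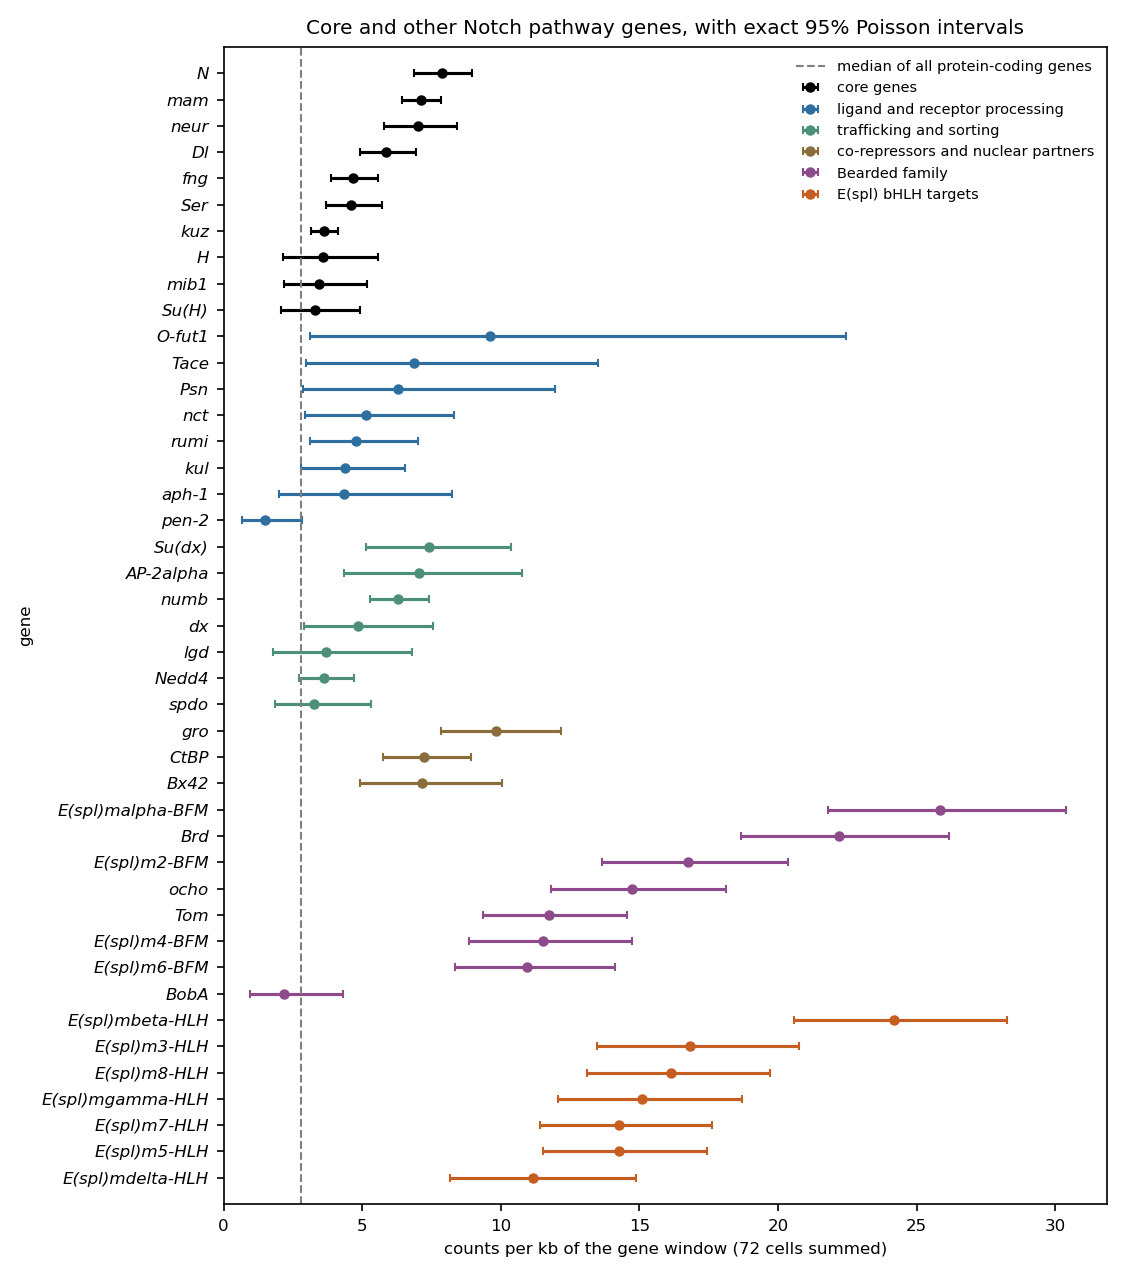
Counts per kb of the 10 core genes (black) and of the 33 other pathway genes (coloured by role), summed over 72 cells, with exact 95% Poisson intervals and the median of all protein-coding genes as a dashed line at 2.81. The E(spl) bHLH targets (11.1 to 24.2) and most of the Bearded family lie to the right of every core gene, of which N is the highest (7.86).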

How the data were processed

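Single-cell ATAC-seq of 1 sorted group (sens-GFP+) was analysed from the count table that the authors deposited. According to the study's methods and the submitters' processing notes, adapters were trimmed with fastq-mcf, reads were mapped with Bowtie2 (2.2.5) to release 6 (dm6), duplicates were removed with Picard, SAMtools (1.2) and FastQC (0.1) were used, and cells were kept by hand from aggregation plots. The deposited counts are raw whole numbers per cisTarget region (a piece of the non-coding genome divided by conservation) and cell. The counting tool, whether reads or fragments were counted, any Tn5 shift and how the listed regions were picked are not given in the sources used here. Of the 384 cells in the labels, 72 have a column and were used, 0 columns were left unused, and the other cells were not analysed here.

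Genes, TSS and exons came from the Ensembl annotation of BDGP6 (Dl is written Delta there), and sequences from the RefSeq Release 6 genome. On each of the 5 main arms the last listed region ended inside the arm. Starts were changed to count from 1. Counts were summed over cells with Python 3.11.15, pandas 2.3.3, NumPy 2.4.6, SciPy 1.17.1 and matplotlib 3.10.9, with exact Poisson and Wilson intervals (95%). Strongest regions had the most counts per kb among regions of at least 200 bp. The text names all 10 genes, the strongest region of each, and the 3 highest and 3 lowest other pathway genes. It names many but not all TSS regions and distal regions with at least 10 counts, and leaves out the regions over the TSSs of mam. The other genes and regions it names give the ends of a range, have intervals that held the median gene, or neighbour these. They were chosen after their values were seen. The members and lists were chosen with earlier results of these data known. The sums and intervals were tested on simulated counts with Poisson error only. The real counts were mostly more spread over cells, so how the intervals hold for them was not tested. Alternatives varied the window, the sharing of regions, the promoter distance, the weight of cells and regions, and left out the cell with most counts. For pooled values and the median gene this was the cell with most counts in the 10 genes. For a single gene it was the cell with most counts in that gene.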

Additional observations from a re-analysis of the deposited data

How the results depend on the processing

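With 1 sort there was no replicate to leave out. No paired analysis was possible because a single sorted group was profiled. The promoter share of 29.5% was 24.7% with the gene span only, 21.8% with only regions in no other gene window, 22.01% with promoters within 100 bp, 34.3% within 1000 bp and 22.2% with the promoters of the 10 genes alone. The pooled 5.52 counts per kb became 4.73 with only unshared regions, 4.44 with a region counted no more than once in a cell, and 5.03 without mam, an alternative chosen after seeing the data. The median of 4.64 became 6.12 with the gene span only and 3.40 with that limit per cell. Between 8 and 10 genes stayed above the median gene, with 8 when unshared regions alone were used (9 genes had any). The strongest region was distal in 5 genes under each alternative tried, but it was another region in H by summed counts and in Dl when counted no more than once in a cell (9 of 10 genes kept theirs in each case). That limit also lowered the strongest region of Ser to 8.81 and of mam to 38.2 counts per kb. Of 79 alternative values for single genes, 62 stayed inside the counting interval, 5 lay above it and 12 below. Values that changed by over 1.5 times belonged to H (1.09 with unshared regions, 5.38 with introns plus 5 kb upstream), Su(H) (5.78 with 1 kb upstream, 6.49 with the gene span only, 5.13 by region midpoints) and mib1 (7.11 with 1 kb upstream or the gene span only). Depth limits H, mib1 and Su(H) most, at 19 to 23 counts each.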
